A study of Mus musculus with 12 samples.

Results

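The metallothioneins Mt1 and Mt2 and 6 genes that regulate zinc traffic (Mtf1, Slc30a1, Slc30a10, Slc39a4, Slc39a5 and Slc39a10) were followed in the kidneys of 12 mice. They were chosen by gene name, and each of the 8 matched 1 of the 22053 rows of the deposited expression table. Each mouse gave 1 library of mRNA from whole kidney, and all mice were C57BL/6. The 4 control mice ate the same diet without adenine and received weekly i.p. PBS. The 4 CKD mice ate 0.2% adenine for 8 weeks, from 8 to 16 weeks of age, a diet that causes chronic kidney disease, and also received PBS. The 4 CKD+Fe mice ate the adenine diet and were injected i.p. each week with 0.5 g/kg of iron dextran. The comparison of CKD with control asked how the disease changed these genes, and that of CKD+Fe with CKD asked what iron added. Values are FPKM (mapped fragments relative to the length of the transcript and to the size of the library), and differences are log2 fold changes of FPKM + 1. A gene was called when its adjusted p was under 0.05 in limma with Benjamini-Hochberg adjustment over the 13132 genes that reached 1 FPKM in at least 4 mice.

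Metallothioneins are small cysteine-rich proteins of the cytosol that bind zinc, copper and cadmium, and the kidney is one of the organs where they accumulate. MTF1 is the zinc finger transcription factor that senses free zinc and binds metal response elements upstream of the metallothionein genes. Transporters of the SLC30 (ZnT) family lower cytosolic zinc by moving it out of the cell or into vesicles, and transporters of the SLC39 (ZIP) family raise it by moving zinc into the cytosol.

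Mt1 (ENSMUSG00000031765, chr8:94179082-94180327) and Mt2 (ENSMUSG00000031762, chr8:94172664-94173568) are neighbours on the same chromosome (GRCm38). The other members lie at chr4:124802104-124849800 (Mtf1, ENSMUSG00000028890), chr1:191906767-191913247 (Slc30a1, ENSMUSG00000037434), chr1:185454848-185468762 (Slc30a10, ENSMUSG00000026614), chr15:76612385-76616852 (Slc39a4, ENSMUSG00000063354), chr10:128395934-128401224 (Slc39a5, ENSMUSG00000039878) and chr1:46807544-46892852 (Slc39a10, ENSMUSG00000025986). No stretch of 50 bases, the read length, in the transcripts of 7 members was shared with a transcript of another gene. In Slc39a10, 27 of 6042 such stretches (0.447%) were shared with Gm6801.

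The promoters of Mt1, Mt2 and Slc30a1 are shown because these 3 genes are classical targets of MTF1, yet differed in what they did in CKD. The sequences are from RefSeq (GRCm38.p6, plus strand) and run from 250 bases before the annotated transcription start to 30 bases after it. They cover chr8:94178839-94179118 (Mt1), chr8:94172368-94172647 (Mt2) and chr1:191906531-191906810 (Slc30a1). Capitals mark the core of the metal response element, searched as TGCACNC and TGCGCNC on both strands, with overlapping matches counted.
Mt1: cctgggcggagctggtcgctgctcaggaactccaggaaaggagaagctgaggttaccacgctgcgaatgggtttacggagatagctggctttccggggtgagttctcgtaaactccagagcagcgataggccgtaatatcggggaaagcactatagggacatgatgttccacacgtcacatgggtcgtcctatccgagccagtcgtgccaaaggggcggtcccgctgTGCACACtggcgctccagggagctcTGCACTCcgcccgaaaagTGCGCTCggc
Mt2: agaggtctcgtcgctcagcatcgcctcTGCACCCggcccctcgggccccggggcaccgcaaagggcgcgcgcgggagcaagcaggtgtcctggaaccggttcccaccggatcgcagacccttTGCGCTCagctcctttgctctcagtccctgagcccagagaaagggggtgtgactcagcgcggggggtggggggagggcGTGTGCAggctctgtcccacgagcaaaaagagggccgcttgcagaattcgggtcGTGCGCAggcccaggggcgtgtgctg
Slc30a1: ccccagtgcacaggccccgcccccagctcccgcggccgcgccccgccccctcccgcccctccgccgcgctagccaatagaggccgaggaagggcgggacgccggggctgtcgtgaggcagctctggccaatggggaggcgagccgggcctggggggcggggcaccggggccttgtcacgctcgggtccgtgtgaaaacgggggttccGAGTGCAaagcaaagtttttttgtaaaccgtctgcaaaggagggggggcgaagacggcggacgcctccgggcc

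The Mt1 promoter held 3 cores, beginning at positions -23, 3 and 21 from the RefSeq start. The Mt2 promoter held 4, at -223, -128, -50 and 5. Slc30a1 held 2, at -43 and 31, of which the second lies past the printed stretch. Among all 32851 promoters of 300 bases in the same table, 25.7% held at least 1 core, 7.11% at least 2, 1.97% at least 3 and 0.517% at least 4. Of the 8 members, 7 had a promoter in the table. Slc30a10 held 3 cores, of which 2 overlapped, and 1 of the 2 promoters of Slc39a5 held 1. Mtf1 and both promoters of Slc39a10 held none, and Slc39a4 was not in the table. Such a match is a description of letters and not a site shown to be bound. Other listed transcripts begin up to 152 bases (Mt1), 242 bases (Mt2) and 475 bases (Slc30a1) after the RefSeq start, so the windows do not cover every listed start. Bases between the end of each window and these later starts were not searched. The counts and positions therefore describe the windows only, and cores near a later start may be missed.

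Both metallothioneins rose in CKD, Mt2 about 10.2-fold and Mt1 about 3.54-fold in mean FPKM. Of the zinc transporters, 3 changed with them, 2 importers upward (Slc39a4, whose call was lost under quantile normalization, and Slc39a10, whose call was lost under both rescalings tried) and 1 importer (Slc39a5) downward. The plasma membrane exporter Slc30a1 was at 17.8 ± 3.99 FPKM in control and 17.7 ± 2.71 FPKM in CKD mice (SD, n = 4 each). It was called lower after rescaling by the median of ratios (log2 fold change -0.58, adjusted p = 0.0122, limma) but not by quantiles. As deposited, 5 of the 7 members tested were called higher and 1 lower in CKD, beside 54.6% of all genes tested called higher and 13.3% called lower. Slc39a4 passed the expression threshold only through the adenine-fed mice, so it had to differ to be tested at all. The fold changes must be read against the whole table, since the median of all genes was a log2 fold change of 0.50 in CKD against control as deposited, and -0.03 after rescaling by the median of ratios or by quantiles. Under the median of ratios, 27.1% of all genes tested were called higher and 31% lower, and under quantile normalization 23.3% and 25.6%. Under these rescalings the rises of Mt1 and Mt2 and the fall of Slc39a5 kept their direction and call, whereas Mtf1 turned to a negative value in both.

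**Figure D1:**
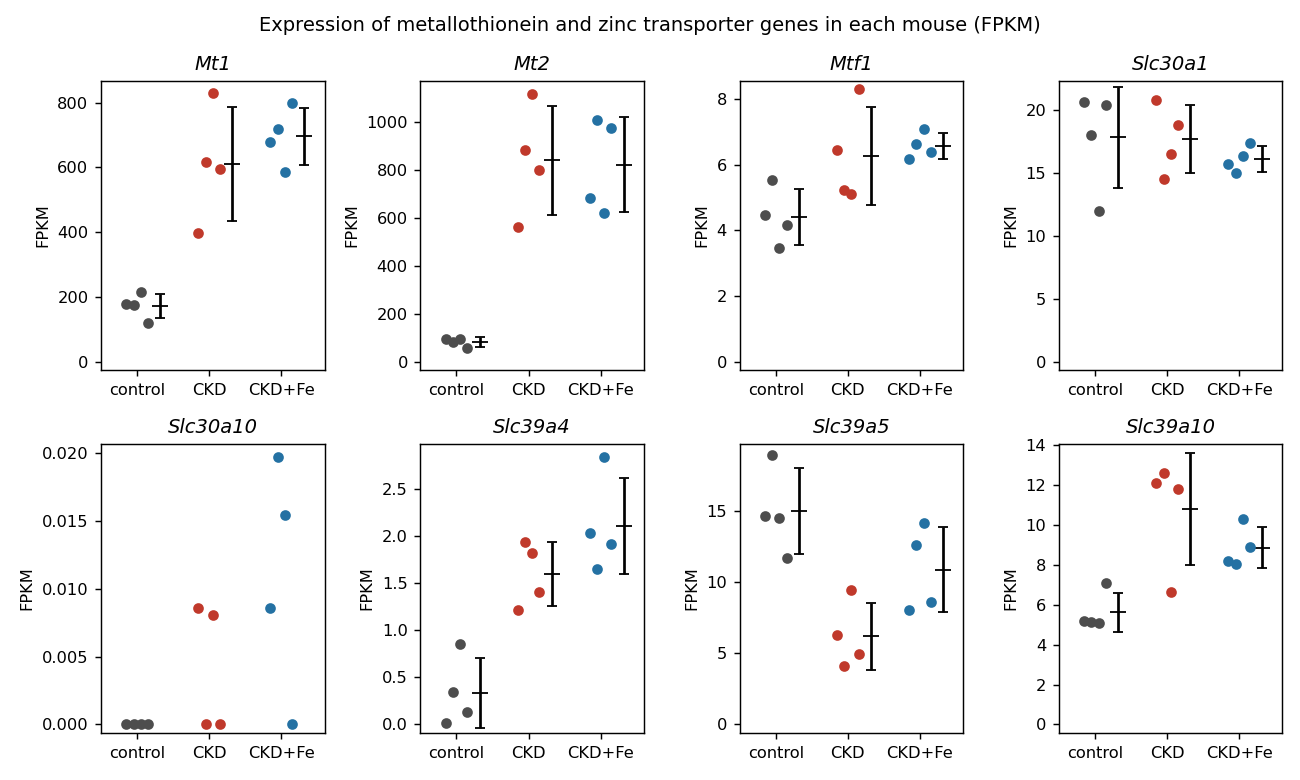
FPKM of each member (vertical axes, linear, 1 panel per gene) in each of 4 control, 4 CKD and 4 CKD+Fe mice, with 1 point per mouse and bars giving the mean and SD of each group (none for Slc30a10). The adenine-fed mice lie above all controls for Mt1, Mt2 and Slc39a4, the CKD mice lie below all controls for Slc39a5, and the 3 groups overlap for Slc30a1.

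Mt1 was read at 179, 175, 214 and 121 FPKM in the control mice, at 399, 618, 831 and 594 FPKM in CKD mice, and at 679, 718, 587 and 799 FPKM in CKD+Fe mice (mice are listed by ascending number in each group throughout). Every adenine-fed mouse was above every control, and the CKD and CKD+Fe mice overlapped. The group means were 172 ± 38.3, 610 ± 177 and 696 ± 88.2 FPKM (SD, n = 4 each). In CKD against control the log2 fold change was 1.80 (SE 0.22, adjusted p = 1.32e-05, limma). Rescaling by the median of ratios gave 1.18 (adjusted p = 0.000705) and quantile normalization 2.08 (adjusted p = 6.83e-07). CKD+Fe differed from CKD by 0.23, with a 95% interval from -0.25 to 0.70 (adjusted p = 0.97, limma).

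Mt2 moved from lower than Mt1 to higher. It was at 96.0, 82.8, 96.5 and 55.9 FPKM in control mice, at 565, 884, 1120 and 803 FPKM in CKD mice, and at 686, 1010, 620 and 977 FPKM in CKD+Fe mice. No adenine-fed mouse came near the control range, and the lowest CKD mouse for Mt2, number 021320, was also the lowest for Mt1. The means were 82.8 ± 19.0, 842 ± 228 and 823 ± 199 FPKM (SD, n = 4 each). Against control, its log2 fold change in CKD was 3.32 (SE 0.24, adjusted p = 2.02e-07, limma), with 2.70 and 3.48 under the 2 rescalings. CKD+Fe differed from CKD by -0.02, with a 95% interval from -0.54 to 0.49 (adjusted p = 0.999, limma). By the exact permutation test over all 70 arrangements of 4 mice against 4, both metallothioneins reached p = 0.0286 in CKD against control, the smallest value this design can give.

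By level, the 2 genes changed place in the transcriptome. Among all rows ranked by FPKM within a mouse, Mt1 held ranks 506 to 756 in control mice, 81 to 157 in CKD mice and 66 to 95 in CKD+Fe mice. Mt2 held ranks 1021 to 1592 in control mice, 47 to 94 in CKD mice and 47 to 85 in CKD+Fe mice. Their summed FPKM ran from 177 to 311 in the control group, from 963 to 1948 with adenine alone and from 1206 to 1776 with iron. Both transcripts are short (549 to 1085 bases listed for Mt1, 388 to 511 for Mt2), and FPKM of short transcripts depends on the fragment length assumed, so levels compared between these genes are approximate while changes of 1 gene between mice are less affected.

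The ratio of Mt1 to Mt2 within a mouse does not change when all values of that mouse are multiplied by a single factor, as under the median of ratios. Quantile normalization is not of that kind, and the ratio was not computed under it. In the values as deposited the ratio was 1.86, 2.12, 2.22 and 2.17 in control mice, 0.706, 0.699, 0.744 and 0.74 in CKD mice, and 0.989, 0.71, 0.947 and 0.818 in CKD+Fe mice. Mt1 thus exceeded Mt2 in all 4 controls, and Mt2 exceeded Mt1 in all 8 adenine-fed mice. On the log2 scale the ratio averaged 1.06 ± 0.11, -0.47 ± 0.05 and -0.22 ± 0.22 in the 3 groups (SD, n = 4 each). The difference between CKD and control was -1.53 (exact permutation p = 0.0286, 0.0429 after Benjamini-Hochberg adjustment over 3 comparisons). Between CKD+Fe and CKD it was 0.25, where mouse 062910 fell among the CKD mice and the groups overlapped (exact permutation p = 0.0857, adjusted 0.0857). Between CKD+Fe and control it was -1.28 (exact permutation p = 0.0286, adjusted 0.0429), against the same control mice.

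**Figure D2:**
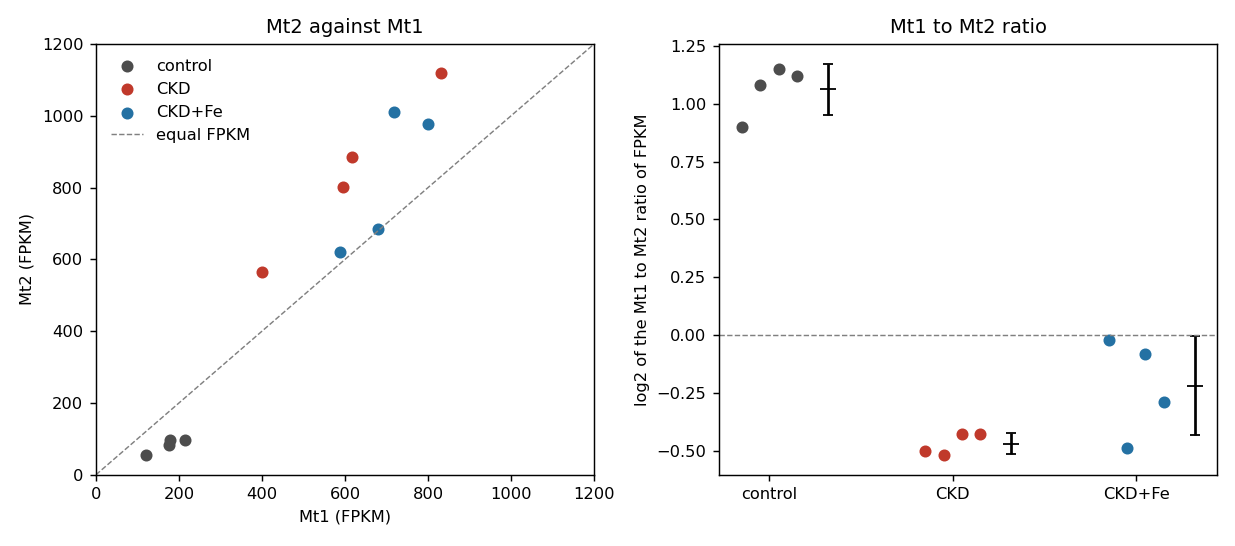
Left, Mt2 against Mt1 in FPKM, 1 point per mouse and coloured by group, with a dashed line where both are equal. Right, the log2 ratio of Mt1 to Mt2 in each mouse by group, with bars for the mean and SD. The 4 control mice lie below the line of equal FPKM and the 8 adenine-fed mice on its other side, with CKD+Fe mouse 042702 nearest to it at a ratio of 0.989.

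Mtf1, the metal sensor itself, was expressed at low level in every mouse. It was at 4.46, 5.54, 3.46 and 4.18 FPKM in control mice, at 6.46, 5.24, 5.11 and 8.31 FPKM in CKD mice, and at 6.18, 6.63, 7.09 and 6.38 FPKM in CKD+Fe mice. The CKD mice overlapped the controls, whereas the CKD+Fe mice did not. The means were 4.41 ± 0.863, 6.28 ± 1.49 and 6.57 ± 0.395 FPKM (SD, n = 4 each). Its log2 fold change was 0.42 in CKD against control (SE 0.16, adjusted p = 0.0329, limma; exact permutation p = 0.0857), below the median of 0.50 of all genes. It turned to -0.10 (adjusted p = 0.622) under the median of ratios and to -0.34 (adjusted p = 0.0904) under quantile normalization. The call was also lost without control mouse 012811 (adjusted p = 0.0577), 042301 (0.0897) or 042310 (0.0663), and without CKD mouse 021320 (0.0693) or 120102 (0.115). Against control, CKD+Fe gave 0.50 as deposited (adjusted p = 0.0153, limma) but -0.02 and -0.25 under the 2 rescalings, neither of them called. Against CKD it gave 0.08 with a 95% interval from -0.27 to 0.42.

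Slc30a1 (ZnT1), which exports zinc across the plasma membrane and is a known MTF1 target, was not called in any of the 3 comparisons in the values as deposited, although some calls against control appeared after rescaling. It was at 20.6, 18, 12 and 20.4 FPKM in control mice, at 20.8, 14.5, 16.5 and 18.8 FPKM in CKD mice, and at 15.7, 15.0, 16.3 and 17.4 FPKM in CKD+Fe mice. The ranges of all 3 groups overlapped, and control mouse 042301 was the lowest of the 12. The log2 fold change in CKD against control was 0.01, with a 95% interval from -0.35 to 0.37 (adjusted p = 0.972, limma). Relative to other genes it lay lower, at -0.58 (adjusted p = 0.0122) after rescaling by the median of ratios and at -0.41 (adjusted p = 0.0637) after quantile normalization. The CKD+Fe mice differed from CKD by -0.12, with an interval from -0.47 to 0.24 (adjusted p = 0.985). CKD+Fe against control gave -0.11 as deposited (adjusted p = 0.582, limma), and was called lower under the median of ratios (-0.69, adjusted p = 0.00501) and quantile normalization (-0.54, adjusted p = 0.022).

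Slc30a10 (ZnT10), known mainly as an exporter of manganese, stayed near the limit of detection and was not tested. It was listed at 0 in all 4 control mice. The CKD mice read 0.00861, 0, 0.00806 and 0 FPKM, and the CKD+Fe mice 0.00861, 0.0197, 0.0154 and 0 FPKM. The values above 0 correspond to about 1.0 to 2.2 reads each, estimated from the step between low FPKM values, so no difference between groups can be read from them.

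Slc39a4 (ZIP4), the importer best known for dietary zinc uptake in the intestine, was scarce in control kidney. It was at 0.0162, 0.346, 0.856 and 0.129 FPKM in control mice, at 1.22, 1.94, 1.82 and 1.41 FPKM in CKD mice, and at 2.03, 1.65, 2.84 and 1.92 FPKM in CKD+Fe mice. Every control was under 1 FPKM and every adenine-fed mouse above it. The means were 0.336 ± 0.372, 1.6 ± 0.337 and 2.11 ± 0.514 FPKM (SD, n = 4 each). Against control, CKD gave a log2 fold change of 0.99 (SE 0.19, adjusted p = 0.000515, limma, and exact permutation p = 0.0286). No control reached the expression threshold, so the gene was tested only through the adenine-fed mice. These p-values are therefore not independent of that filter. With 0.1 in place of 1 added to FPKM, the log2 fold change was 2.36 (adjusted p = 0.00093, limma), a value sensitive to the low control readings. Under quantile normalization it was 0.29 and not called (adjusted p = 0.247). CKD+Fe differed from CKD by 0.26, with a 95% interval from -0.16 to 0.67 (adjusted p = 0.959).

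Slc39a5 (ZIP5), an importer known from the basolateral membrane of epithelial cells, was the only member called lower in CKD in the values as deposited. It was at 14.7, 19.0, 14.5 and 11.7 FPKM in control mice, at 6.28, 4.09, 9.48 and 4.97 FPKM in CKD mice, and at 8.09, 12.6, 14.2 and 8.64 FPKM in CKD+Fe mice. No CKD mouse reached the control range, and the CKD+Fe mice overlapped both other groups. The means were 15.0 ± 3.03, 6.2 ± 2.36 and 10.9 ± 2.99 FPKM (SD, n = 4 each). The log2 fold change in CKD against control was -1.19 (SE 0.23, adjusted p = 0.000589, limma; exact permutation p = 0.0286) and -1.75 under both rescalings.

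Slc39a5 was also the member with the largest difference between CKD+Fe and CKD. It had a log2 fold change of 0.74, with a 95% interval from 0.24 to 1.25 and an unadjusted p of 0.00716, but it was not called (adjusted p = 0.508, limma; exact permutation p = 0.0857). Leaving out 1 mouse at a time, it ran from 0.59 to 0.94 and was not called. With mice weighted by their quality in the same fit it was 0.95 and passed the threshold (adjusted p = 0.043). CKD+Fe against control gave -0.44 and was not called (adjusted p = 0.11, limma), though it was called under the median of ratios (-1.01, adjusted p = 0.004), quantile normalization (-0.94, adjusted p = 0.0135) and the quality weights (-0.41, adjusted p = 0.0453).

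Slc39a10 (ZIP10), a zinc importer of the plasma membrane, was higher in adenine-fed mice as deposited. It was at 5.18, 5.13, 5.08 and 7.06 FPKM in control mice, at 12.1, 12.6, 6.61 and 11.8 FPKM in CKD mice, and at 8.20, 8.02, 10.3 and 8.88 FPKM in CKD+Fe mice. One mouse in each of the first 2 groups stood apart from its group, control mouse 042310 upward and CKD mouse 110310 downward, and these 2 made the groups overlap. The means were 5.61 ± 0.966, 10.8 ± 2.81 and 8.85 ± 1.03 FPKM (SD, n = 4 each). The log2 fold change in CKD against control was 0.81 (SE 0.19, adjusted p = 0.00178, limma; exact permutation p = 0.0571). It was 0.26 (adjusted p = 0.209) under the median of ratios and 0.14 (adjusted p = 0.499) under quantile normalization. CKD+Fe differed from CKD by -0.23, with a 95% interval from -0.63 to 0.17 (adjusted p = 0.959).

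**Figure D3:**
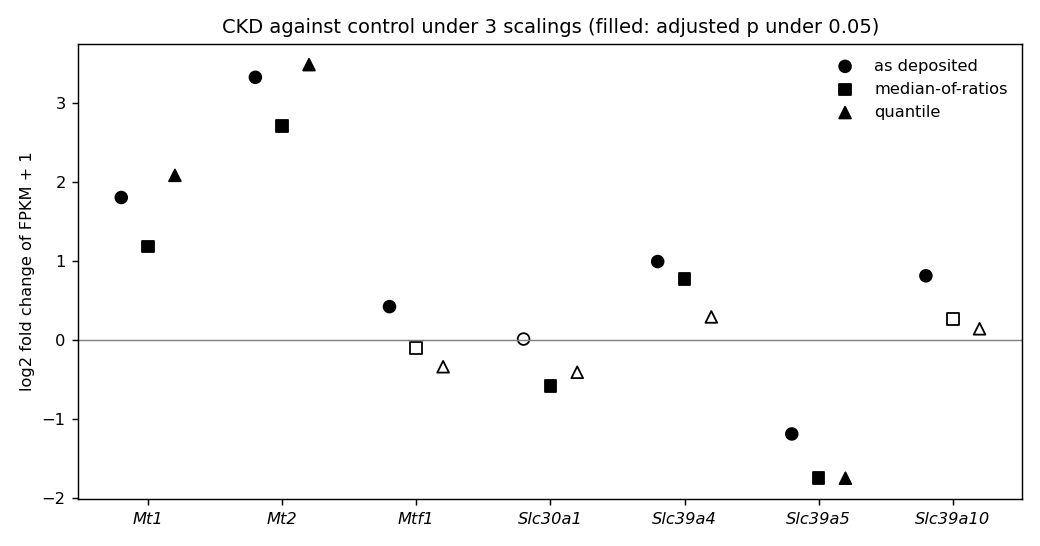
Difference between CKD and control on the log2(FPKM + 1) scale (vertical axis) for the 7 members tested, as deposited (circles), after rescaling by the median of ratios (squares) and after quantile normalization (triangles), filled where the adjusted p was under 0.05. Mt1, Mt2 and Slc39a5 stay filled and on the same side of 0 in all 3, Mtf1 changes side under both rescalings, and Slc30a1 lies at 0.01 as deposited and below 0 under both.

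Counted by separation of the mice, 3 members (Mt1, Mt2 and Slc39a4) had every CKD mouse above every control and 1 (Slc39a5) had every CKD mouse below, beside 44.6% and 10.4% of all genes tested. Of these, Slc39a4 passed the expression threshold only through the adenine-fed mice. No member was called in CKD+Fe against CKD, and over all genes tested 1 was called higher (0.00761%) and none lower. At an unadjusted p under 0.05, 1 member was higher (Slc39a5) and none lower, beside 3.27% and 2.72% of all genes. No member separated the CKD+Fe from the CKD mice, as 1.35% of genes did upward and 1.08% downward. In CKD+Fe against control, 5 members were called higher and none lower, beside 54.5% and 11.0% of all genes. This comparison shares its control mice with that of CKD against control, so the 2 sets of calls are not independent.

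The other genes of the same families were taken as a whole list of 21, of which 16 were tested. In CKD against control 6 were called higher and 3 lower, beside 54.6% and 13.3% of all genes tested. Their median log2 fold change was 0.18, beside 0.50 for all genes. None was called in CKD+Fe against CKD. Of the 2 other metallothioneins, Mt4 was listed at 0 in every mouse. Mt3, the form known from the brain, was at 1.81 ± 1.19 FPKM in control and 1.48 ± 1.04 FPKM in CKD mice (SD, n = 4 each) and was not called as deposited (log2 fold change -0.16, adjusted p = 0.668), but was called lower under quantile normalization (-0.95, adjusted p = 0.0189). Slc30a3, Slc30a8, Slc39a2 and Slc39a12 did not reach the expression threshold.

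Among the other exporters, 2 of 6 tested were called higher and 1 lower as deposited, beside 54.6% and 13.3% of all genes tested. Under the median of ratios 1 was called higher and 4 lower, beside 27.1% and 31% of all genes. Under quantile normalization 1 was called higher and 2 lower, beside 23.3% and 25.6%. Slc30a2, which loads zinc into vesicles, fell from 26.0 ± 6.0 to 10.1 ± 1.23 FPKM in CKD (SD, n = 4 each; log2 fold change -1.26, adjusted p = 3.8e-05) and was at 8.94 ± 1.47 FPKM in CKD+Fe mice. Slc30a7, which supplies zinc to the Golgi, rose from 4.6 ± 0.443 to 11.4 ± 1.87 FPKM (log2 fold change 1.14, adjusted p = 1.27e-05). Both kept direction and call under the 2 rescalings. Slc30a4 was called higher as deposited (0.70, adjusted p = 0.0126) but not under the median of ratios (0.15) or quantile normalization (0.03). Slc30a5 (-0.78, adjusted p = 0.000827, limma), Slc30a6 (-0.71, adjusted p = 0.000593) and Slc30a9 (-0.87, adjusted p = 0.00381) were called lower under the median of ratios but not as deposited. Of these, only Slc30a6 was also called lower under quantile normalization (-0.70, adjusted p = 0.000809).

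Among the other importers, 4 of 9 tested were called higher and 2 lower as deposited, beside 54.6% and 13.3% of all genes tested. Slc39a1, a plasma membrane importer, rose from 30.2 ± 2.45 to 68.0 ± 5.09 FPKM (SD, n = 4 each; log2 fold change 1.14, adjusted p = 5.19e-06) and was at 56.0 ± 8.18 FPKM in CKD+Fe mice. In this list it alone had an unadjusted p under 0.05 for iron (log2 fold change -0.28, limma adjusted p = 0.813). Slc39a6 rose from 1.96 ± 0.388 to 7.38 ± 0.604 FPKM (log2 fold change 1.51, adjusted p = 1.13e-06). Slc39a8, which carries zinc and manganese, fell from 27.7 ± 6.7 to 13.2 ± 4.58 FPKM (log2 fold change -1.04, adjusted p = 0.00183), and Slc39a11 fell from 17.2 ± 1.89 to 12.7 ± 0.719 FPKM (-0.41, adjusted p = 0.00547). These 4 kept direction and call under both rescalings. Slc39a14, which also carries iron, was called higher as deposited (1.03, adjusted p = 0.00333) but not under the median of ratios (0.46, adjusted p = 0.156) or quantile normalization (0.59, adjusted p = 0.0971). Slc39a13, of the early secretory pathway, was called as deposited (0.69, adjusted p = 0.00211) and under quantile normalization (0.37, adjusted p = 0.0431) but not under the median of ratios (0.10, adjusted p = 0.609). Slc39a3 was not called as deposited (0.13, adjusted p = 0.517, limma) but was called lower under quantile normalization (-0.52, adjusted p = 0.0413).

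**Figure D4:**
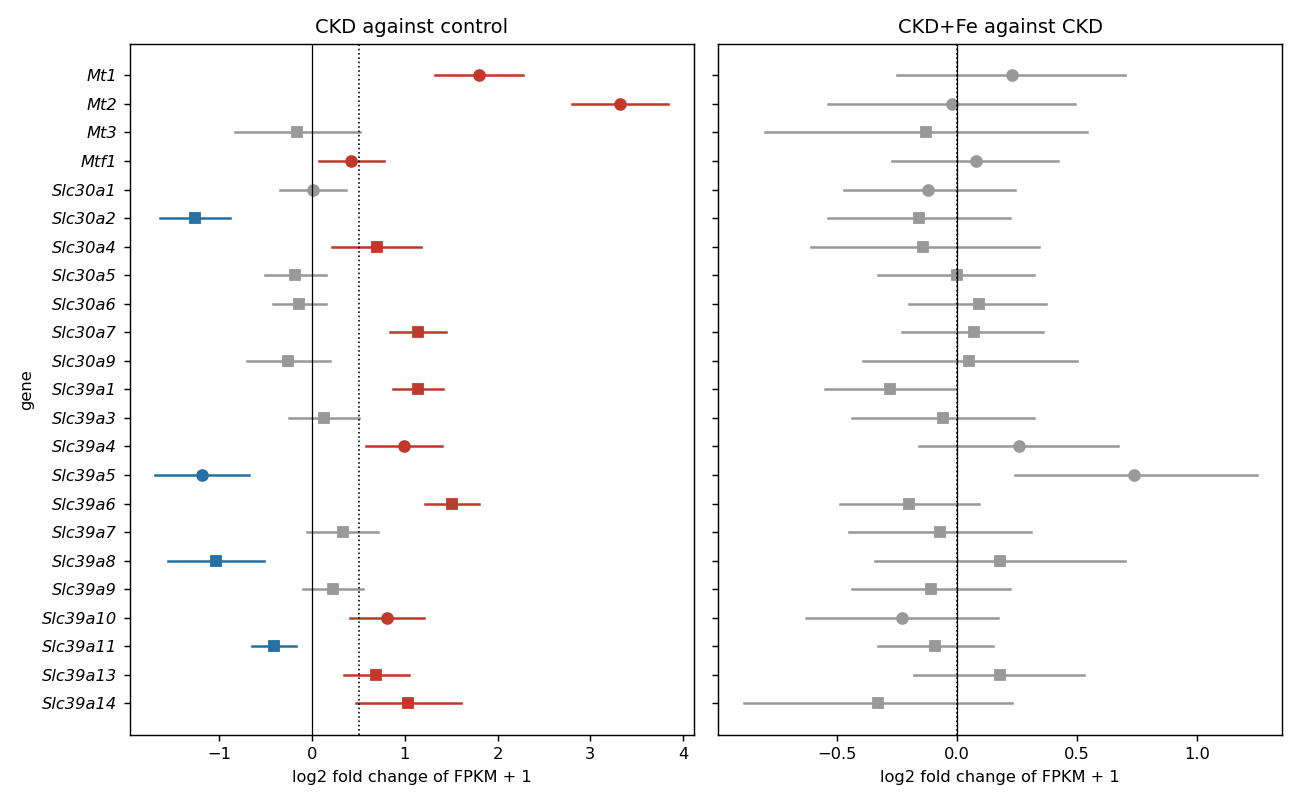
Log2 fold change of FPKM + 1 (horizontal axes) with its 95% interval for the members tested (circles) and the other zinc genes tested (squares), in CKD against control (left) and CKD+Fe against CKD (right). Red and blue mark genes called higher and lower as deposited, grey marks genes not called, and the dotted line is the median of all genes. Mt2 lies farthest to the right at 3.32, nothing is called on the right panel, and in CKD against control the values of Mtf1, Slc30a1, Slc39a3 and Slc39a9 turn negative under both rescalings and that of Slc39a7 under the median of ratios.

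Of 6 other genes known as MTF1 targets, 5 were tested, and 3 were called higher and 1 lower in CKD against control, with a median log2 fold change of 0.98. These counts are near the 54.6% and 13.3% of all genes tested. Csrp1, a cytoskeletal LIM protein gene, rose by 1.64 (adjusted p = 7.23e-06, limma), and Slc40a1, which encodes the iron exporter ferroportin, rose by 1.44 (adjusted p = 0.000346). Gclc, the catalytic subunit of glutathione synthesis, was called lower at -1.08 (adjusted p = 0.00519). None of the 5 was called in CKD+Fe against CKD. Under the median of ratios, 2 were called higher and 1 lower, beside 27.1% and 31% of all genes.

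Members, other zinc genes, genes of the neighbouring lists and cell type markers were left out of a ranking by likeness, so closer genes among them would not appear. Among the remaining tested genes, those whose pattern over the 12 mice was most like that of each member were listed. They were ranked by Pearson r of log2(FPKM + 1), as a description, since the points share the 3 groups. For Mt2 they were Zfp410 (r = 0.992), Havcr1 (0.988), the tubular injury marker KIM-1, and Mgp (0.987). For Mt1 they were Tle6 (0.983), Fam214b (0.982) and Zfp410 (0.98). Havcr1 averaged 1.72, 189 and 111 FPKM in the control, CKD and CKD+Fe groups. For Slc39a5 they were Slc25a11 (0.924), Slc22a8 (0.923), an organic anion transporter of the proximal tubule, and Mtfp1 (0.917). Slc22a8 was at 178, 38.4 and 90.0 FPKM on average in the 3 groups. For Slc39a10 they were Galnt7 (0.987), Hmgxb4 (0.983) and Actr2 (0.981), and for Slc39a4 Rbm6 (0.975), Atg16l2 (0.973) and Ptpn18 (0.973). For Slc30a1 they were Srpr (0.935), Ppp1r15b (0.934) and 2610507B11Rik (0.906), and for Mtf1 Lctl (0.935), Dbr1 (0.935) and Zfp827 (0.924).

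Cell type markers moved with the diet. The summed FPKM of 7 proximal tubule genes ran from 3610 to 5220 in the control group, from 855 to 1570 with adenine alone and from 835 to 1850 with iron, and all 7 were called lower in CKD. That of 7 macrophage genes ran from 119 to 245, from 1730 to 3620 and from 1610 to 3700, and all 7 were called higher. That of 4 fibroblast genes ran from 46.0 to 65.7, from 275 to 539 and from 254 to 352 (4 of 4 higher), and that of 3 neutrophil genes from 1.3 to 5.64, from 52.5 to 211 and from 46.0 to 126 (2 of 2 tested higher). These are counts as deposited, where 54.6% of all genes tested were called higher and 13.3% lower. Under the median of ratios the counts were the same, beside 27.1% and 31% of all genes. Under quantile normalization 6 of the 7 proximal tubule genes were called lower and the other counts were the same, beside 23.3% and 25.6%. No marker in these lists was called between CKD+Fe and CKD. The sums of the 5 thick limb and distal genes overlapped between groups (1830 to 3180, 2560 to 3570 and 2130 to 3330). As deposited, only Aqp2 of these was called in CKD, as lower (-1.24, adjusted p = 0.0416, limma). Under quantile normalization it was not called (-0.92, adjusted p = 0.12). Atp6v1g3 was called lower under the median of ratios (-0.97, adjusted p = 0.00136) and quantile normalization (-0.68, adjusted p = 0.0209). Umod (0.81, adjusted p = 0.00625) and Slc12a3 (0.97, adjusted p = 0.0387) were called higher under quantile normalization only. The sums also overlapped for the 3 endothelial genes (33.1 to 54.9, 30.8 to 43.1 and 30.9 to 50.3). Of these, Kdr was called lower as deposited (-0.67, adjusted p = 0.00714, limma) and under both rescalings. Pecam1 was called lower only under the median of ratios (-0.75, adjusted p = 0.00323) and quantile normalization (-0.51, adjusted p = 0.0209). For the 5 urothelial genes the sums overlapped too (1.37 to 25.3, 1.84 to 25.0 and 5.89 to 24.5), and none was called. Of the tissues a dissection could carry along, the pancreatic markers Prss2, Cpa1 and Ctrb1 were at or near 0 in every group while Cela1 averaged 85.8, 31.3 and 39.6 FPKM, and the 2 adipocyte genes summed to at most 12.1 FPKM. The 3 liver genes summed to 343 to 850, 122 to 475 and 81.9 to 726 FPKM, nearly all of it Ttr, while Alb averaged 5.86, 1.49 and 4.19 FPKM in the 3 groups. In whole kidney, fewer cells of a type and less RNA per cell cannot be told apart, and the part of these shifts in the changes of Mt1, Mt2, Slc39a4, Slc39a5 and Slc39a10 was not tested.

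Estimated depth was somewhat higher in control than in CKD mice. The step between low FPKM values put the mapped fragments at approximately 22.4 to 26.4 M in the control group, 20.5 to 22.1 M with adenine alone and 18.2 to 24.1 M with iron. One mouse of each group stood further from the rest of its group than the others, namely control 042301 (595 genes at least 2-fold from the rest), CKD 110310 (805) and CKD+Fe 042702 (442), against 41 to 225 genes in the other 9 mice. Without these 3 mice, a choice made after the data were seen, the same numbers of members were called in CKD against control (5 higher, 1 lower), with 1.75 for Mt1, 3.25 for Mt2 and -1.39 for Slc39a5, and none was called in CKD+Fe against CKD, where Slc39a5 was at 1.06 (adjusted p = 0.0544, limma).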

How the data were processed

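RNA was sequenced from whole kidneys of 12 mice, 4 in each of 3 groups named in the sample labels. The libraries were stranded mRNA libraries read from one end over 50 bases. Per the submitters' processing notes, bcl2fastq 2.19, STAR 2.5.2, Cufflinks 2.1.1 and the GRCm38 build were used. The annotation release is not given in the sources used here. The authors deposited FPKM per gene and mouse, with a position and a status. The table marked 30 values in 17 rows as failed, and these rows were left out of the fit, whereas 480 values marked as low data were kept. No member was affected. The authors tested normalized counts with DESeq2. FPKM are not counts, so the main test was limma 3.58.1 (run under R 4.3.3, with a variance trend) on log2(FPKM + 1).

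All 12 mice entered 1 fit, restricted to genes that 4 or more mice expressed at 1 FPKM or above. Tests were two-sided, with Benjamini-Hochberg adjustment over all genes tested and a threshold of 0.05. Single genes and the Mt1 to Mt2 ratio were also compared by exact permutation over 70 arrangements (scipy 1.17.1), where the smallest p is 0.0286. The fit was tested on simulated data. FPKM are relative to the total of each mouse, and a change in total RNA per kidney was not measured. Replicates are mice, and nothing in the labels names a batch.

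The members and the gene lists were chosen with earlier results of these data known. The genes named included all 8 members. Of the other zinc genes, those called in CKD against control or with an unadjusted p under 0.05 in CKD+Fe against CKD were named. Also named were the 2 largest rises and falls of each neighbouring list. The 3 genes most alike to each member tested were taken only from genes outside all the lists. The remaining genes of the zinc list and marker genes were named to account for them. Alternatives were the pseudocount (0.1), the expression filter (none, or a mean of 5), 2 rescalings, the mice in the fit, quality weights, no variance trend and leaving out each mouse.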

Additional observations from a re-analysis of the deposited data

Results flagged for a closer look

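A pair of Slc39a10 values stood far from the others of their group. Control mouse 042310 was the highest control at 7.06 FPKM, and its gap to the next mouse was 0.951 of the range of the group. CKD mouse 110310 was the lowest CKD mouse at 6.61 FPKM, with a gap of 0.86 of the range. Both exceed Dixon's 95% critical value for 4 samples. In all 23 groups were examined, and chance marks about 1 in 20. Both values lie toward the other group, so leaving either mouse out had to raise the difference between CKD and control. When each of the 12 mice was omitted, Slc39a10 ran from 0.73 to 1.01 (log2 fold change) and stayed called.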

How the results depend on the processing

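For each comparison 21 other settings were tried, 1 of them chosen after the data were seen. Mt1 and Mt2 kept direction and call against control in all of them, at 1.18 to 2.08 and 2.70 to 3.48 in CKD against control apart from the settings that leave out a mouse, and so did Slc39a5 in CKD against control (-1.75 to -1.19). In CKD against control the median of ratios called 3 members higher and 2 lower, and 3 other zinc genes higher and 6 lower. Over all genes it called 27.1% higher and 31% lower. Quantile normalization called 2 members higher and 1 lower. Of the other zinc genes it called 1 exporter and 3 importers higher and 6 genes lower, beside 23.3% and 25.6% of all genes. In CKD+Fe against control the median of ratios called 3 members higher and 2 lower, and 2 other zinc genes higher and 8 lower, beside 26.1% and 29.3% of all genes. Quantile normalization there called 3 members higher and 2 lower. Of the other zinc genes it called 1 exporter and 3 importers higher and 6 genes lower, beside 19.8% and 22.5% of all genes. Quality weights called 1 member lower in this comparison. Quality weights called 1 member higher in CKD+Fe against CKD. Values turned negative for Mtf1 in CKD against control (-0.0998 and -0.343) and CKD+Fe against control (-0.0174 and -0.253) under the median of ratios and quantile normalization, for Slc30a1 in CKD against control under the median of ratios (-0.581) and quantile normalization (-0.41, not called) and for Slc39a10 in CKD+Fe against control under quantile normalization (-0.119). Both rescalings remove the shift of the median gene; other causes were not tested. Leaving out each mouse gave 4 to 5 members called higher and 1 lower in CKD against control, 3 to 4 other zinc genes lower and 6 higher, and ratio differences of -1.59 to -1.50 (CKD against control), 0.183 to 0.342 (CKD+Fe against CKD) and -1.35 to -1.19 (CKD+Fe against control), where the smallest possible exact p is 0.0571. In CKD+Fe against control it gave 5 members higher and 0 lower, with 4 to 6 other zinc genes higher and 3 to 4 lower, and in CKD+Fe against CKD 0 in either direction. A fit on the 2 groups alone gave Mtf1 an adjusted p of 0.0647. With a mean of at least 5 FPKM required, Slc39a4 was not tested. No paired analysis was possible because the groups share no replicate numbers.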

Other observations

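Metallothionein genes are known to respond to glucocorticoids, to interleukin 6 through STAT3 and to general stress as well as to metals, and genes of these pathways were read in the same fit. Of 8 genes of the glucocorticoid response, 5 were called higher and none lower in CKD against control (median log2 fold change 0.95, beside 0.50 for all genes), where 54.6% of all genes tested were called higher. The largest values were those of Zbtb16 (2.31, adjusted p = 0.000201, limma), which passed the expression threshold only through the adenine-fed mice, and Per1 (2.13, adjusted p = 4.34e-05). Of 7 tested genes of the interleukin 6 and STAT3 response, all 7 were called higher (median 3.23), led by Lcn2 (7.05, adjusted p = 4.56e-08) and Fgg (4.40, adjusted p = 3.31e-06). Of 8 tested immediate early and heat shock genes, 6 were called higher (median 2.28), led by Egr1 (3.23, adjusted p = 3.62e-05) and Atf3 (2.79, adjusted p = 1.4e-05). Under the median of ratios these counts were 3 higher for glucocorticoid genes, 7 higher for interleukin 6 genes, and 5 higher and 1 lower for immediate early and heat shock genes, beside 27.1% higher and 31% lower over all genes. No gene of the 3 lists was called in CKD+Fe against CKD. At an unadjusted p under 0.05 (limma), 2 of the 8 glucocorticoid genes and 2 of the 7 interleukin 6 genes were lower there and none higher. No immediate early or heat shock gene reached it, and over all genes 3.27% were higher and 2.72% lower. The part of these 3 lists in the change of Mt1 and Mt2 was not tested.

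Copper is the other essential metal that metallothioneins bind. Of 9 tested genes of copper handling, 3 were called higher and 3 lower in CKD against control (median -0.37), beside 54.6% and 13.3% of all genes tested. Cp, the copper-binding ferroxidase ceruloplasmin, rose by 4.02 (adjusted p = 8.49e-08, limma) and kept its call under both rescalings. The copper pump Atp7a was called higher as deposited (1.44, adjusted p = 0.0142) but not under the median of ratios (1.05, adjusted p = 0.0678) or quantile normalization (0.64, adjusted p = 0.265). Ccs, which delivers copper to superoxide dismutase, was lower at -1.07 (adjusted p = 2.33e-05) and kept its call under both rescalings. Cox17, which delivers it to cytochrome oxidase, was lower at -0.53 (adjusted p = 0.0271) but not called under quantile normalization (-0.23, adjusted p = 0.222). The median of ratios called 2 of the 9 higher and 6 lower, beside 27.1% and 31% of all genes.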
